A study of Mus musculus with 6 samples.

Results

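The expression of 10 epithelial genes was followed in presomitic mesoderm (PSM), the mesenchymal tissue that flanks the tail end of the mouse embryo's neural tube and from which somites form. They are the keratin genes Krt19, Krt8 and Krt5, the cell surface and junction genes Epcam, Cdh1 and Cldn7, and the transcription factor genes Trp63, Tfap2c, Grhl2 and Grhl3. All probe sets annotated to exactly 1 of these 10 symbols were taken, whatever their signal, which gave 13 of 19551 probe sets and 10 of 10290 genes. Krt8 had 3 probe sets, Epcam had 2 and the other 8 genes had 1 each.

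The data were 6 Affymetrix expression arrays of the anterior part of the PSM at embryonic day 8.75, each hybridized with RNA from 1 pool of 3 dissected PSMs. Control embryos (3 pools) were R26R AC/AC, and mutant embryos (3 pools) were R26R AC/AC;T-Cre, both on a background that the labels give as C57BL6/6J. Both groups therefore carried 2 copies of the AC allele at the ROSA26 locus, and the mutants alone carried T-Cre. In this transgene the T (Brachyury) promoter drives Cre in cells of the primitive streak and their mesodermal descendants. The labels do not spell out AC, which is taken here, from background knowledge, to be A-CREB, a dominant-negative blocker of CREB proteins whose expression starts after Cre recombination. No pool carried T-Cre without AC, so effects of Cre and of AC cannot be told apart. The labels call the pools biological replicates, and each p-value measures the spread between pools.

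Keratins are the intermediate filament proteins of epithelial cells and assemble as pairs of a type I and a type II chain. Krt8 (type II) pairs with Krt18, and Krt19 (type I) joins them in simple epithelia such as gut endoderm, notochord and early surface ectoderm, while Krt5 (type II) marks the basal layer of stratifying epidermis. Mesoderm loses Epcam and E-cadherin (Cdh1) as it leaves the primitive streak, and the PSM then uses N-cadherin (Cdh2). Trp63, Tfap2c, Grhl2 and Grhl3 encode transcription factors that switch on epidermal and junction genes in non-neural ectoderm.

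Promoter sequence is shown for members whose windows hold motifs of the transcription factors at issue here. The RefSeq promoter table (GRCm38.p6) held 6 promoters of 5 of the 10 genes, of which the 250 bases before each gene start were searched on both strands. The motifs were the AP-2 motif GCCNNNGGC (the Tfap2 family), AACCGGTT (the Grhl family), the decamer of the p53 family that includes Trp63, the cAMP response element TGACGTCA and its half-site TGACG (the CREB family), and the E-box CACCTG, read by the repressors Snai1, Snai2, Zeb1 and Zeb2. The full response element holds 2 overlapping half-sites. Capitals mark every match.
Epcam, chr17:87635729-87635978, plus strand: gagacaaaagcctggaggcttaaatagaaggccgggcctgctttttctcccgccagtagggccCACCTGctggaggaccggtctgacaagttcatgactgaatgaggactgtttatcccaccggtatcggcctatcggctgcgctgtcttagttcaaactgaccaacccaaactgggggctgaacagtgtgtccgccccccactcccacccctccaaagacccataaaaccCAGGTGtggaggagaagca
Krt5, chr15:101712906-101713155, minus strand: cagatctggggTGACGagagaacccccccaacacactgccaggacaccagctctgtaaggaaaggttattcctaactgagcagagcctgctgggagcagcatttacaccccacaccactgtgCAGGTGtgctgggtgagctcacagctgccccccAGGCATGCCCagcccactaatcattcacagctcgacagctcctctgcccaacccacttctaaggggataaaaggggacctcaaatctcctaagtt
Cldn7, chr11:69965171-69965420, plus strand: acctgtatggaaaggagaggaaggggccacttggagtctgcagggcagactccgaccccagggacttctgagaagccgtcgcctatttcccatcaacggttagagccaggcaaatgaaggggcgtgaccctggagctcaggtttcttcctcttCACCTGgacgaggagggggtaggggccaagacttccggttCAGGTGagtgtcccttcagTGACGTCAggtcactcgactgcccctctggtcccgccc
Krt8, chr15:102004343-102004592, minus strand: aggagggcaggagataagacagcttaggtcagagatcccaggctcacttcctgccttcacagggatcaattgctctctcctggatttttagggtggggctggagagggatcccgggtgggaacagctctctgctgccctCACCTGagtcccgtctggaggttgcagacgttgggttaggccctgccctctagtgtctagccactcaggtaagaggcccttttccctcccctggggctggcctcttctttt

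CACCTG or its reverse complement was found in 5 of the 6 member windows, against 17.2% of all 32851 windows of the same length. Epcam had it 187 and 19 bases before the start, Krt5 at 128 bases, Cldn7 at 97 and 57 bases of its second start, and Krt8 at 111 bases. Grhl3, whose window is not printed, had it at 19 bases. The p53 family decamer was found in the Krt5 window, 95 bases before the start, and in 7.13% of all windows. The full response element TGACGTCA was found 38 bases before the second start of Cldn7 and in 1.55% of all windows, and the half-site in 2 of the 6 member windows against 17.8% of all. Neither GCCNNNGGC (13.7% of all windows) nor AACCGGTT (0.116%) was found in the 6 member windows. A match describes letters in a window and does not show that a factor binds there.

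The arrays were alike in scale. Median signal lay between 491 and 535, and Pearson's r of log2 signals between arrays, over probe sets that are not independent replicates, was 0.975 to 0.991. The ratio of 3' to 5' signal of the dap spike-in, a bacterial transcript that reports on labelling, was 19.6 to 23.8 on 3 arrays (control 1, mutant 1 and mutant 2), termed high-ratio arrays, and 10.2 to 12.2 in control 2, control 3 and mutant 3. Of 15 PSM markers measured, 12 had a mean signal over the 6 arrays above the 40th percentile of all probe sets. In the control pools, the Notch ligand gene Dll1 read 3089, 3497 and 3267. Tbx6, a transcription factor gene of the PSM, read 501, 607 and 541. The PSM markers below that percentile were Mesp2, Mesp1 and Lfng. In the control pools Mesp2 read 189, 220 and 173, Mesp1 160, 190 and 166, and Lfng 223, 246 and 238. Detection calls were not used, so whether these dim markers stood above background is not known. Probe sets bind with different strengths, so signals are compared between pools and not between genes.

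Setting mutant against control pools asks what T-Cre activity on the AC background changes in this tissue. Signal of all 13 member probe sets was higher on average in mutant pools, against 55.1% of all probe sets, by log2 differences (mutant minus control, of signal plus 1) of 0.29 to 1.12. Krt19 and Epcam rose, with a fold change of 2.17 for Krt19 and 1.52 for the brighter Epcam probe set. The calls were 2 of 13 probe sets higher and 0 lower, at a Benjamini-Hochberg adjusted p under 0.05 over all 19551 probe sets in limma, against 0.240% of all probe sets called higher and 0.317% called lower. At an unadjusted p under 0.05, 12 of the 13 were higher, against 7.21% of all probe sets. In 12 of the 13 the 3 mutant values lay above the 3 control values, as they did in 10.9% of all probe sets. The median log2 difference of the 13 was 0.58, and over all probe sets it was 0.03. The members were chosen with earlier results of these data known, so these shares describe them and are not independent support. In a bulk sample, more cells of an epithelial type and more of these RNAs per cell cannot be told apart.

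**Figure D1:**
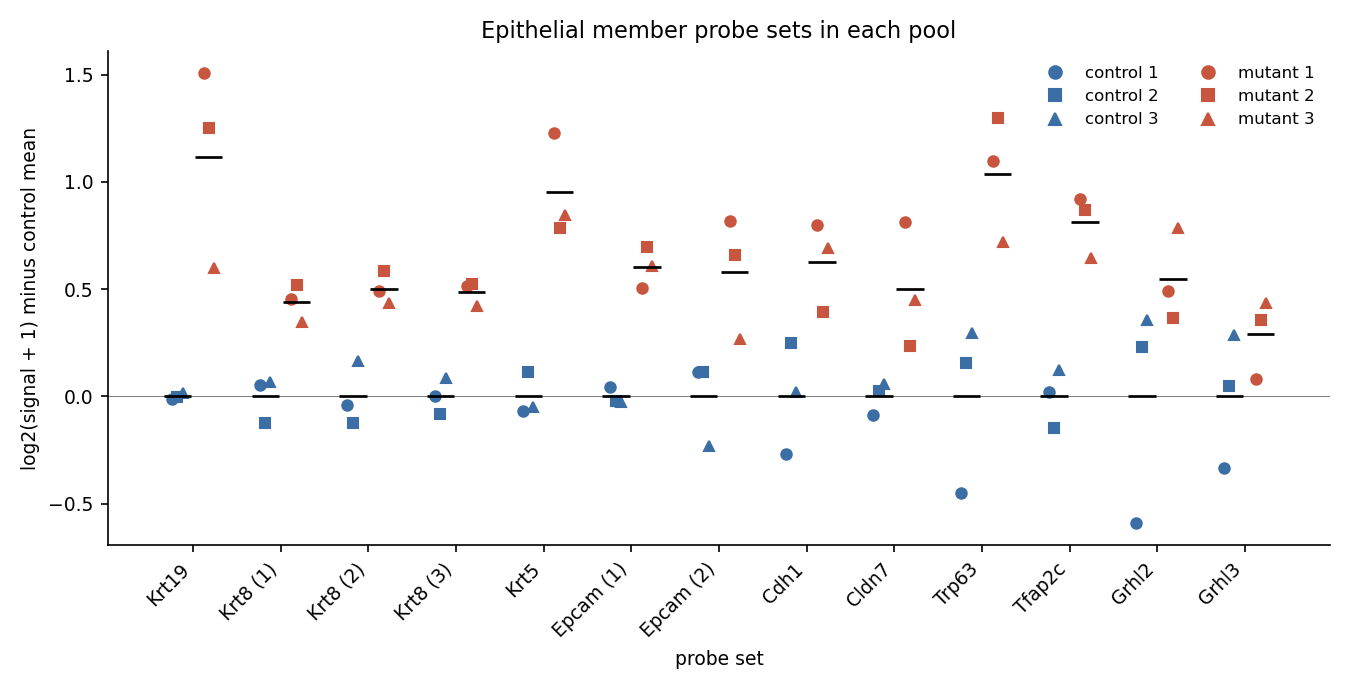
Signal of each of the 13 member probe sets in each pool, as log2(signal + 1) minus the mean of the 3 control pools. Blue symbols are control pools, red symbols are mutant pools, the shape is the replicate number and black bars are group means; Grhl3 is the one probe set in which the groups overlap.

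Of the keratin genes, Krt19 had the highest difference of the 13. Its signal was 719, 725 and 733 in the control pools, here and below in the order of replicates 1 to 3, and 2064, 1728 and 1098 in the mutant pools. The control pools lay within 0.03 log2 units of each other, the mutant pools spread over 0.91, and the groups did not overlap. The log2 difference was 1.12 (SE 0.20, n = 3 pools per genotype, adjusted p = 0.0458 by limma), which ranked 80 among 19551 probe sets counted from the highest. It was 1.39 within the high-ratio arrays and 0.59 among the rest, values that rest on 1 pool of one genotype and 2 of the other. The call was lost without control 2 (adjusted p = 0.127 by limma), control 3 (0.147), mutant 1 (0.211) or mutant 2 (0.221).

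Krt8 was read by 3 probe sets. By the array's naming, the suffix _a_at of the brightest marks probes shared by transcripts of 1 gene, and the suffix _x_at of the other 2 marks possible cross-hybridisation with other genes. In the brightest, signal was 5776, 5117 and 5844 in the control pools and 7628, 7986 and 7085 in the mutant pools. All mutant values of this probe set were above all control values. The other 2 probe sets gave the same separation, with mean signals of 4384 ± 464 (SD, n = 3) and 5103 ± 297 in control against 6196 ± 324 and 7149 ± 270 in mutant. The log2 differences of the 3 probe sets were 0.44, 0.50 and 0.49 (SE 0.10, 0.11 and 0.09), and limma's adjusted p was 0.0906, 0.0786 and 0.0585. The 95% confidence interval of the fold change in the brightest was 1.16 to 1.58. Krt18, the partner chain of Krt8 and not a member, had 4230, 4844 and 5080 in control and 6596, 6218 and 6332 in mutant pools, a log2 difference of 0.44 (SE 0.10, adjusted p = 0.0988). Krt18 and the brightest Krt8 probe set therefore had equal differences to 2 decimals. The other 2 Krt8 probe sets had slightly higher ones, and none of these probe sets was called.

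Krt5 was dim. Its mean log2 signal lay at percentile 14.8 of all probe sets, detection calls were not used here, and whether it stood above background is not known. Signal was 81.7, 92.8 and 82.7 in control pools and 202, 148 and 155 in mutant pools, with no overlap. The log2 difference was 0.95 (SE 0.21, adjusted p = 0.0798 by limma), and the interval of the fold change was 1.41 to 2.66. With 64 in place of 1 added before the logarithm, which damps dim signals, the difference was 0.63 (adjusted p = 0.0764).

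Among the surface and junction genes, Epcam, a homophilic adhesion protein of epithelia, had the smallest standard error. Its brighter probe set (_a_at) read 2033, 1942 and 1938 in control pools and 2797, 3191 and 3005 in mutant pools. The lowest mutant pool was 0.46 log2 units above the highest control pool. The log2 difference was 0.60 (SE 0.11, adjusted p = 0.0400 by limma), with 0.55 within the high-ratio arrays and 0.63 among the rest. The call was lost without control 2 (adjusted p = 0.149), control 3 (0.175), mutant 1 (0.144), mutant 2 (0.194) or mutant 3 (0.0602). With _a_at, _s_at and _x_at probe sets left out, this probe set is not tested, and with _s_at and _x_at alone left out, its adjusted p was 0.0322. A second, dimmer Epcam probe set (_x_at) read 313, 313 and 246 in control pools and 511, 458 and 348 in mutant pools. It gave nearly the same difference, 0.58, with a larger error (SE 0.19, adjusted p = 0.230).

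Cdh1, the adherens junction protein E-cadherin, read 1655, 2367 and 2023 in control pools and 3469, 2620 and 3227 in mutant pools. The groups did not overlap, but control 2 and mutant 2 were 0.15 log2 units apart, and the difference of 0.63 (SE 0.16) was not called (adjusted p = 0.114 by limma). Cdh2, the cadherin of the PSM itself, had 7550, 7667 and 6717 in control and 6182, 5796 and 7276 in mutant pools, with overlap and a log2 difference of −0.19 (SE 0.11, adjusted p = 0.511). Cldn7, a claudin of tight junctions and lateral membranes, read 909, 982 and 1003 in control pools and 1696, 1133 and 1315 in mutant pools. Mutant 1 stood above the other mutant pools, and the difference was 0.50 (SE 0.16, adjusted p = 0.215), or 0.34 without mutant 1.

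The 4 transcription factor genes were all dim, with mean log2 signals between percentiles 33.0 and 39.2 of all probe sets. Trp63, which encodes p63, the p53 relative needed for stratified epidermis, read 159, 242 and 267 in control pools and 466, 536 and 359 in mutant pools. The groups did not overlap, and the fold change was 2.05 (95% confidence interval 1.44 to 2.93), but control 1 was low and the spread was wide. The log2 difference of 1.04 (SE 0.23) had an adjusted p of 0.0873 in limma, and it was 1.65 within the high-ratio arrays and 0.49 among the rest. Tfap2c, AP-2 gamma, a factor of surface ectoderm, trophoblast and germ cells, read 202, 180 and 217 in control pools and 377, 364 and 312 in mutant pools. Its 3 control pools were close together, as were its mutant pools, and its difference of 0.81 (SE 0.17, adjusted p = 0.0708) was 0.87 and 0.66 within the sets of arrays. The suffix of the Tfap2c probe set (_s_at) marks possible cross-hybridisation.

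The grainyhead-like factors had the highest adjusted p-values of the 13. Grhl2, an activator of Cdh1 and of claudin genes, read 185, 328 and 358 in control pools and 394, 360 and 481 in mutant pools. Control 3 and mutant 2 were 0.01 log2 units apart, so the separation rests on that gap. The difference of 0.55 (SE 0.25, adjusted p = 0.389 by limma) was 0.25 without control 1. Grhl3, a factor of neural tube closure and epidermal barrier formation, read 210, 274 and 323 in control pools and 281, 340 and 359 in mutant pools. Its groups overlapped, and the difference was 0.29 (SE 0.20, adjusted p = 0.581), or 0.13 without control 1. The 95% confidence intervals of the fold change were 1.00 to 2.14 for Grhl2 and 0.903 to 1.66 for Grhl3.

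**Figure D2:**
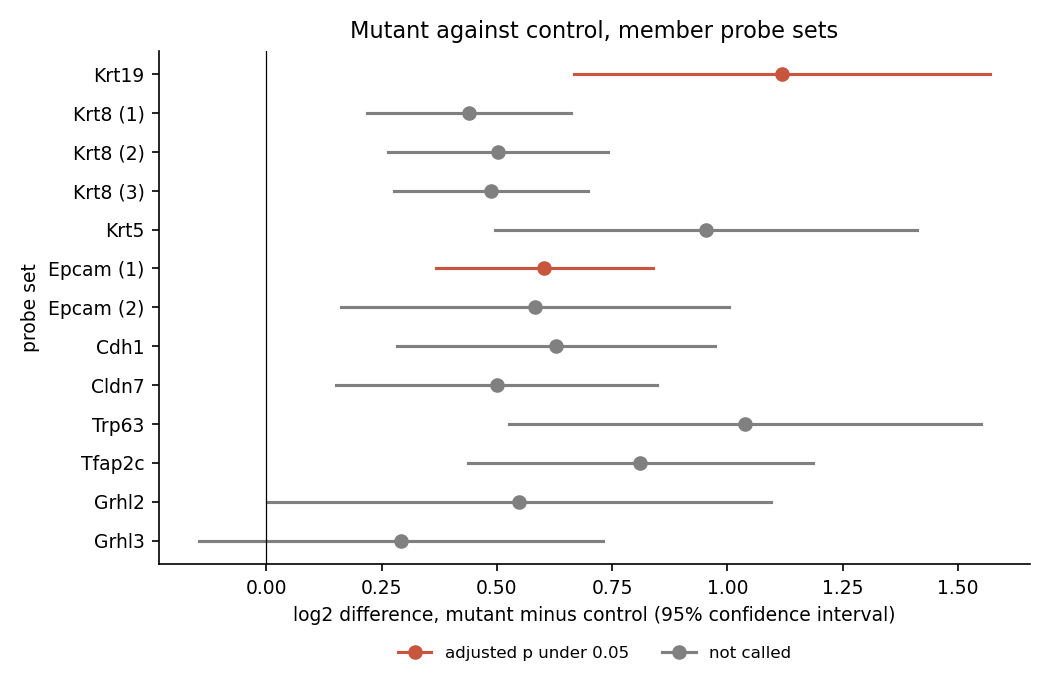
Log2 difference of each member probe set, mutant minus control, with its unadjusted 95% confidence interval from limma (3 pools per genotype); red marks an adjusted p under 0.05. All points lie to the right of 0, and the intervals of Krt19 and Grhl3 mark the highest and lowest estimates, 1.12 and 0.29.

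Pools of one genotype did not rank the members alike. Control 1 was the lowest control pool in 7 of the 13 probe sets and control 3 the highest in 9. Mutant 1 was the highest mutant pool in 6 and mutant 3 the lowest in 7. Shares over all probe sets were not counted for these orders. Median signal of the arrays was 491, 523 and 530 in the control pools and 535, 519 and 523 in the mutant pools. At the gene level, with each gene read by its brightest probe set, the median difference of the 10 genes was 0.87 within the high-ratio arrays and 0.53 among the rest. All 13 probe sets were higher in mutant within both sets. The share of all probe sets higher within each set was not counted, so this count stands without a background. How far the array set contributes to these differences was not tested. The number of members called depended on the model. With the array set added to the model, 10 of the 13 probe sets were called higher, against 1.74% of all probe sets in that model. With array quality weights 10 were, against 2.40% of all, and without an intensity trend 0 were, against 0.128%. With 1 probe set per gene in the fit, 5 of the 10 genes were called, against 0.700% of all genes: Epcam (adjusted p = 0.0191), Krt19 (0.0209), Tfap2c (0.0373), Krt5 (0.0446) and Trp63 (0.0467). Without control 2, control 3, mutant 1 or mutant 2, 0 probe sets were called.

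Other epithelial genes were taken from 5 lists, of which 51 of 92 genes had a probe set, each gene read by its brightest. Limma called 0 of the 51, against 0.340% of all genes called higher and 0.466% lower. At an unadjusted p under 0.05, 16 were higher, against 7.84% of all genes, and 1 was lower, against 6.72%. Their median log2 difference was 0.25, against 0.02 over all 10290 genes and 0.62 for the 10 members, and 38 of the 51 were positive against 52.9% of all genes. With the array set in the model 8 were called higher, with array weights 5 higher and 1 lower, and with 1 probe set per gene 2 higher.

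The lists of other epithelial genes differed in how far they followed the members. Of 3 other keratin genes measured, Krt7, a simple-epithelium keratin, had 0.99 (SE 0.19, adjusted p = 0.0580), Krt18 is given above, and Krt10, of differentiated epidermis, had −0.18 (adjusted p = 0.639). Krt7 read 300, 319 and 401 in control pools and 809, 703 and 530 in mutant pools. Of 13 tight junction genes, 10 were positive (median 0.27). The polarity gene Crb3 had 0.61 (adjusted p = 0.198), Cldn6 0.48 (adjusted p = 0.253) and the tight junction adaptor cingulin, Cgn, 0.62 (adjusted p = 0.277), while Tjp1, which mesenchyme also expresses, had −0.03.

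Of 9 genes of adherens junctions and desmosomes, 6 were positive, with a median of 0.07. Perp, a desmosome gene that is a target of p53 and p63, had 1.24 (SE 0.24, adjusted p = 0.0601), with 245, 369 and 512 in control pools and 769, 995 and 798 in mutant pools. The p53 response list, which holds Perp, had 7 of 14 genes called higher, against 0.340% of all genes. Ccng1 (2.33) and Cdkn1a (2.52) were among them, and the list median was 0.98. The part of the p53 response in the Perp difference was not tested. Desmocollin 2, Dsc2, had 0.30 (adjusted p = 0.374), Cdh3, P-cadherin, had 0.32 (adjusted p = 0.551), and desmoplakin, Dsp, the plaque protein of desmosomes, had −0.13 (adjusted p = 0.677), with 6245, 7753 and 7245 in control and 7148, 5953 and 6272 in mutant pools. Of 11 epithelial membrane proteins and proteases, 10 were positive (median 0.40). Cdcp1 had 0.66 (adjusted p = 0.108), the membrane protease matriptase, St14, 0.50 (adjusted p = 0.201) and Fras1, of the epidermal basement membrane, 0.47 (adjusted p = 0.230).

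Of 15 other epithelial regulators, 10 were positive, with a median of 0.18. Tfap2a, the AP-2 alpha gene of surface ectoderm and neural crest, read 201, 285 and 394 in control pools and 444, 406 and 545 in mutant pools, a difference of 0.71 (SE 0.24, adjusted p = 0.241). Esrp1, an epithelial splicing factor, had 0.39 (adjusted p = 0.263). Foxc1, also a gene of paraxial mesoderm, had −0.48 (adjusted p = 0.384).

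**Figure D3:**
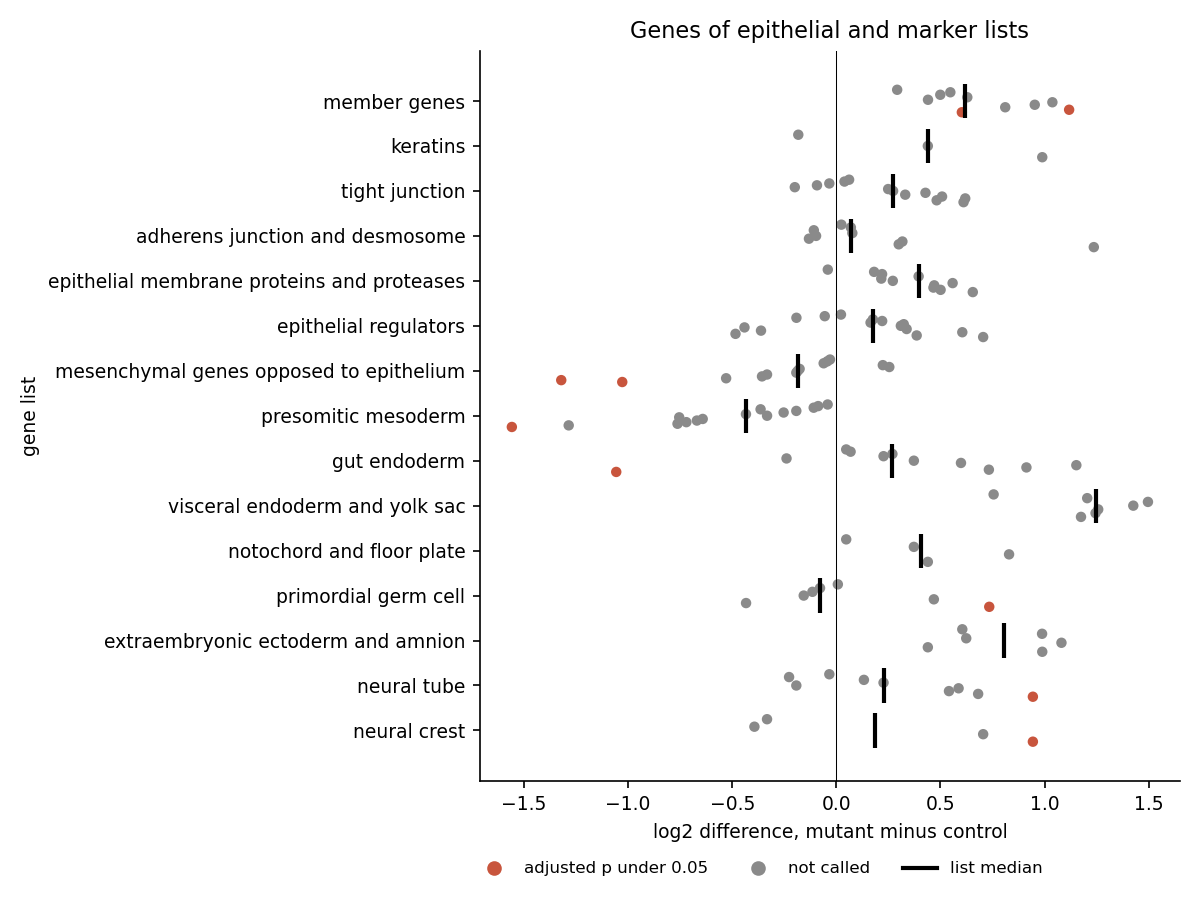
Log2 difference, mutant minus control, of each measured gene of the member, epithelial and marker lists, except the p53 response list, which is not drawn. Each list has 1 point per gene, by its brightest probe set, and members are left out of the other lists. Black bars are list medians, 0.62 for the members and −0.43 for presomitic mesoderm, and red points have an adjusted p under 0.05.

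Genes of the mesenchymal state were measured beside them. Of 13 such genes, 2 fell: Pdgfra, a growth factor receptor of paraxial mesoderm (log2 difference −1.03, SE 0.11, adjusted p = 0.00287), and Prrx1, a homeobox factor of limb bud mesenchyme (−1.32, SE 0.15, adjusted p = 0.00316). Their list had a median of −0.18, and 11 of the 13 were negative. Over all genes, 52.9% were positive and 0.466% were called lower. Vimentin, Vim, had −0.18 (adjusted p = 0.653). The repressor genes that read CACCTG were not called, with −0.53 for Zeb2 (adjusted p = 0.234), −0.33 for Snai2 (adjusted p = 0.484), −0.04 for Zeb1 (adjusted p = 0.916) and 0.25 for Snai1 (adjusted p = 0.711). Of 15 PSM markers, all were negative, with a median of −0.43, and 1 fell, Ripply2, which sets the somite boundary (−1.56, SE 0.15, adjusted p = 0.000987). Pcdh8, a protocadherin of the forming somite, had −1.29 (adjusted p = 0.0798) and Tbx6 −0.76 (adjusted p = 0.108). The summed signal of the PSM list was 26466 to 28770 in control pools and 17863 to 24518 in mutant pools.

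Markers of other tissues that a dissection of the anterior PSM could hold were read beside the members. Over all genes, 52.9% were positive, 7.84% were higher at an unadjusted p under 0.05 in limma, and 0.340% were called higher. For visceral endoderm and yolk sac, all 7 measured markers were positive, with a median of 1.24, and 0 were called by limma, with 1 at an unadjusted p under 0.05 (Rbp4, 1.18, adjusted p = 0.343). Ttr, transthyretin, read 3857, 876 and 2073 in control pools and 11528, 3458 and 2405 in mutant pools, and Afp, alpha-fetoprotein, 2113, 617 and 1308 against 7246, 2517 and 1246. The summed signal of the 7 was 2304 to 8240 in control pools, and 29540, 7772 and 5510 in mutant 1, 2 and 3, so mutant 1 stood far above the other 5 pools. Of the 13 member probe sets, 6 were also highest in mutant 1: those of Krt19, Krt5, Cdh1, Cldn7 and Tfap2c and the dimmer Epcam one. Another 5 were highest in mutant 2: all those of Krt8, the brighter Epcam one and that of Trp63. The remaining 2, of Grhl2 and Grhl3, were highest in mutant 3. The share of all probe sets highest in each pool was not counted. Without mutant 1 the differences were 0.92 for Krt19, 0.82 for Krt5, 0.54 for Cdh1, 0.34 for Cldn7 and 0.76 for Tfap2c. The dimmer Epcam probe set then had 0.46, and the brighter one, which was highest in mutant 2, had 0.65.

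Of 11 gut endoderm markers outside the members, 9 were positive, against 52.9% of all genes, with a median of 0.27. At an unadjusted p under 0.05, 4 were higher, Cpm, Clic6, Spink1 and Foxa3, against 7.84% of all genes. By limma's adjusted p, 0 rose and 1 fell, Sox17 (−1.06, SE 0.20, adjusted p = 0.0492), whose probe set can cross-hybridise and which endothelium also expresses. Cpm, a carboxypeptidase, had 0.73 (adjusted p = 0.146), Clic6 had 0.91 (adjusted p = 0.240), Spink1, a secreted protease inhibitor, had 1.15 (adjusted p = 0.265), and Foxa3, a forkhead factor of endoderm, had 0.60 (adjusted p = 0.300). The endoderm and notochord factor Foxa2 had 0.37 (adjusted p = 0.516), with 385, 352 and 289 in control and 550, 316 and 490 in mutant pools. The summed signal of these markers was 15014 to 16883 in control and 15453 to 20109 in mutant pools, which overlap. Of 4 notochord and floor plate markers outside the members, 0 were called and 2 had an unadjusted p under 0.05, Krt18 and Sox9 (0.83, adjusted p = 0.219). Their summed signal was 6852 to 8124 in control and 8331 to 10169 in mutant pools. Krt18 dominates this sum, with 4230, 4844 and 5080 in control and 6596, 6218 and 6332 in mutant pools. The separation of the sums therefore cannot be read as one of notochord markers apart from this keratin.

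For extraembryonic ectoderm and amnion, all 6 markers outside the members were positive (median 0.81), against 52.9% of all genes. At an unadjusted p under 0.05, 5 were higher, against 7.84% of all genes. Limma called 0 of the 6, against 0.340% of all genes called higher. The 6 markers include Krt7 and Krt18, and Postn, periostin, had 1.08 (adjusted p = 0.221). Their summed signal was 6147 to 7483 in control and 9284 to 10885 in mutant pools, and Krt18 dominates this sum too. Of 7 germ cell markers outside the members, Ifitm3, an interferon-induced membrane protein, rose (0.73, SE 0.12, adjusted p = 0.0264), 3 were positive and 4 negative, and the related Ifitm1, which paraxial mesoderm expresses, had −0.43 (adjusted p = 0.226). Dppa3, which marks germ cells more strictly, was dim, with 104, 133 and 82.4 in control and 130, 163 and 143 in mutant pools. The summed signal of this list was 14671 to 17009 in control and 11240 to 15684 in mutant pools.

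Of 9 neural tube markers, 6 were positive and 3 negative, with a median of 0.23, against 52.9% of all genes positive. Pax3, a factor of the dorsal neural tube and of somites, rose (0.94, SE 0.16, adjusted p = 0.0299 by limma). Pax6 had 0.68 (adjusted p = 0.149), and the pan-neural gene Sox2 had 0.23 (adjusted p = 0.575). The summed signal of the neural tube list was 15544 to 18905 in control and 14657 to 18881 in mutant pools. This sum holds Cdh2, which the PSM also expresses, with 7550, 7667 and 6717 in control and 6182, 5796 and 7276 in mutant pools. It therefore does not read neural tissue alone. Of the 4 neural crest markers, which include Pax3 and Tfap2a, 2 were positive and 2 negative, with log2 differences from −0.39 to 0.94. Their summed signal was 2840 to 3448 in control and 2940 to 3381 in mutant pools. Detection calls were not used, so whether dim markers of these lists stood above background is not known. How much RNA of other tissues contributed to the epithelial differences was not tested.

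**Figure D4:**
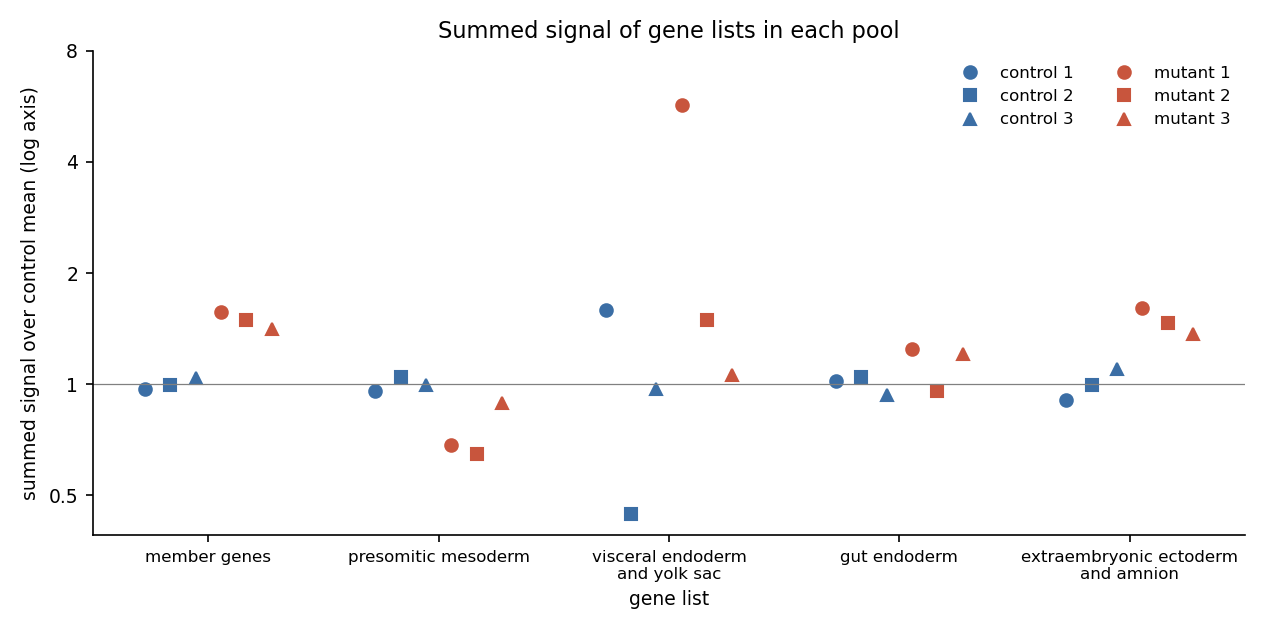
Summed signal of 5 gene lists in each pool, divided by the mean of the 3 control pools and drawn on a log axis; members are left out of the other lists. The 10 members lie at 1.41 to 1.57 in the mutant pools, and visceral endoderm and yolk sac markers at 5.69, 1.50 and 1.06 in mutant 1, 2 and 3.

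The summed signal of the 10 member genes was 11931, 12250 and 12788 in the control pools and 19373, 18406 and 17395 in the mutant pools. Bright probe sets such as that of Krt8 dominate this sum. The mean centred log2 profile of the 5 member genes above the 40th percentile of mean signal (Krt19, Krt8, Epcam, Cdh1 and Cldn7) was −0.38, −0.30 and −0.30 in the control pools and 0.49, 0.29 and 0.21 in the mutant pools. Another 7240 genes lay above the same percentile, and those with Rik, Gm, LOC or clone symbols were passed over when genes were picked. Of the rest, the 8 whose log2 signals over the 6 arrays were most like this profile were Gprc5c, Ndufa12, Pmm1, Mrps25, Map3k20, Aen, Cst3 and Ank3. Their Pearson's r with the profile was 0.984 to 0.987. These correlations include the difference between genotypes, share the same 6 arrays, and are a description. Of the 8, Map3k20, a stress-activated kinase, rose (0.96, SE 0.15, adjusted p = 0.0264). Gprc5c, an orphan receptor, had 0.75 (adjusted p = 0.0550), and Aen, a nuclease induced by p53, had 0.49 (adjusted p = 0.0893).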

How the data were processed

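Per the submitters' processing notes, the authors used Affymetrix Expression Console and MAS5, and the deposited values are linear intensity, 1 scaled value for each probe set on each array. How the table came to hold 19606 probe sets, the software versions and the scaling target are not given in the sources used here. The 55 array controls were left out, and 17348 of the other 19551 probe sets had exactly 1 gene symbol in the platform annotation.

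Tests ran on log2(signal + 1), with no filter on low signals, in limma 3.58.1 (R 4.3.3): a two-sided test of genotype with empirical Bayes moderation, an intensity trend and Benjamini-Hochberg adjustment over the 19551 probe sets. An adjusted p under 0.05 was a call. For gene lists, the brightest probe set with 1 symbol stood for a gene. The members, the lists and the dap ratio of 15 that parts the arrays were chosen with earlier results of these data known. Named genes were all members, called genes, the 3 genes of smallest p in each epithelial list and the 2 in each marker list, preset defining markers, and the 8 genes most like the members. Zeb1, Zeb2, Snai1, Snai2, Tjp1, Dsp, Dll1, Mesp1, Mesp2, Lfng, Postn, Clic6, Spink1, Foxa3 and Ifitm1 were added after their values were seen.

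On simulated data for this comparison, with 19551 probe sets, limma recovered 8.96% of log2 changes of 0.5, 53.7% of changes of 1 and 86.4% of changes of 2. The number of arrays limits the precision. Residuals of equal replicate numbers correlated by 0.18, −0.27 and 0.27, so the numbers were not taken as pairs. The alternatives were a filter at the 40th percentile of mean signal, offsets of 16 and 64, quantile normalization, median centring, no trend, array weights, a replicate block, a spike-in ratio block, 1 probe set per gene, no _a_at, _s_at or _x_at probe sets, and leaving out each array. Leaving out _s_at and _x_at probe sets alone was added after the data were seen.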

Additional observations from a re-analysis of the deposited data

How the results depend on the processing

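The log2 differences of the 13 member probe sets were above 0 under all alternatives that could be run for each, while their calls were not stable. The 2 calls became 0 without an intensity trend, 1 with the filter at the 40th percentile (of 8 probe sets tested), 1 with median centring, 1 without _a_at, _s_at and _x_at probe sets (of 7; the Epcam one is left out), 5 with 1 probe set per gene (of 10), 10 with array weights and 10 with the spike-in ratio block. With 1 array left out, 0 to 2 were called higher and 0 lower. Leaving out _s_at and _x_at probe sets alone, an alternative chosen after seeing the data, kept the calls of Krt19 and Epcam (2 of 9 tested). The replicate block gave 3 member calls, with Trp63 added (adjusted p = 0.0394 by limma), and quantile normalization gave 3. Over all probe sets, the 47 higher and 62 lower calls became 29 higher with the filter, 25 higher and 22 lower without a trend, 469 and 433 with array weights, 113 and 105 with the replicate block, 341 and 339 with the spike-in ratio block, and 72 higher with 1 probe set per gene; with 1 array left out they were 19 to 100 higher and 14 to 106 lower. Other epithelial genes, 0 called in the reported fit, had higher calls of 1 with quantile normalization, 2 with median centring, 5 with array weights (and 1 lower), 2 with the replicate block, 8 with the spike-in ratio block, 2 with 1 probe set per gene, 1 without _a_at, _s_at and _x_at probe sets, 1 without _s_at and _x_at probe sets, and 0 to 1 with 1 array left out. The marker lists, p53 response included, had 9 higher and 4 lower, which became 5 higher without a trend, 22 and 9 with array weights, 17 higher with the replicate block, and 21 and 7 with the spike-in ratio block, and 5 to 13 higher and 3 to 7 lower with 1 array left out. The cause of these moves was not tested, except that fewer probe sets or arrays enter some of the fits. No detection calls were used, so how far the dim probe sets of Krt5 and the transcription factor genes stood above background is not known.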
